A study of Homo sapiens with 35 samples.

Results

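Open chromatin lying deep inside protein-coding genes was described in human blood progenitors, from 6209 moderately strong ATAC-seq peaks. ATAC-seq marks accessible DNA by the insertion of sequencing adapters with a transposase. The peaks were chosen by their fold enrichment over background at the summit, from 24 to 100, and by a summit inside a protein-coding gene that lies over 10 kb away from the end of every such gene. They are called deep intragenic peaks here. They made up 2.06% of the 301177 peaks on chromosomes 1 to 22, in a deposited list of 308732 peaks, and 5.74% of the 108154 peaks of any strength at such positions. Their fold values are given as a description, since these values chose them.

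The series asked how haematopoietic progenitor cells respond to extra MYC, a growth-promoting transcription factor. The cells were made from H1, a line of human embryonic stem cells in wide use. The labels describe 35 libraries taken at 6 days from day 10 to day 20, while the design text counts 44. Of these, 12 came from cells labelled doxee17 and treated with doxycycline, which switches on ectopic MYC, and 11 from untreated doxee17 cells (both batch 1). A further 12 came from untreated cells labelled h1 (batch 2). All carry the cell line label H1 hESC. The labels do not say whether doxee17 is 1 clone. The 18 groups of line, treatment and day hold 1 to 3 libraries each. The list gives a single value for each peak and does not split it by library. Treated cells therefore could not be set against untreated ones, no replicate error exists, and no test was made. Every fold is the authors' own, and positions refer to GRCh38.

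Chromatin that is open far from the ends of a gene is often an enhancer, a stretch of DNA that binds transcription factors and raises transcription of the gene around it or of a neighbour. It can also be an internal promoter, from which a shorter transcript of the same gene or a non-coding RNA starts. In blood cells, factors of the RUNX, GATA and ETS families, PU.1 among them, are known to bind enhancers within the introns of long regulatory genes. Internal promoters often lie in CpG islands, stretches rich in the dinucleotide CG, whereas most enhancers are poor in it.

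Transcript starts that RefSeq annotates beneath deep intragenic peaks include CG-rich and CG-poor ones, and neither is given here as an enhancer. The first 5 were chosen to show the range of CpG content, and every CG dinucleotide is in capitals. Each is the stretch of 250 bases that precedes the start, 5′ to 3′ on the strand of the gene, from RefSeq GRCh38.p14.
RUNX3 start, chr1:24930277-24930526 (minus strand): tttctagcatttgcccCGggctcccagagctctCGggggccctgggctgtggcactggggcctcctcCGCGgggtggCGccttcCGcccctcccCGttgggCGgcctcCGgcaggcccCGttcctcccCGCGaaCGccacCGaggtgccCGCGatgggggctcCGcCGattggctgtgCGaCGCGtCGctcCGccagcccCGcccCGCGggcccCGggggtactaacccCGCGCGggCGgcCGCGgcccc
MEF2C start, chr5:88883185-88883434 (minus strand): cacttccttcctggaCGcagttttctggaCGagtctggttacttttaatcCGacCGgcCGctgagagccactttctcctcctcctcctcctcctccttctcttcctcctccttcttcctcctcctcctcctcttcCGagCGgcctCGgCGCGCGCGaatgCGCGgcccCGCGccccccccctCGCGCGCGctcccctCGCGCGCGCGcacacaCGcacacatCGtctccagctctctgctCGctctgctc
MECOM start, chr3:169147472-169147721 (minus strand): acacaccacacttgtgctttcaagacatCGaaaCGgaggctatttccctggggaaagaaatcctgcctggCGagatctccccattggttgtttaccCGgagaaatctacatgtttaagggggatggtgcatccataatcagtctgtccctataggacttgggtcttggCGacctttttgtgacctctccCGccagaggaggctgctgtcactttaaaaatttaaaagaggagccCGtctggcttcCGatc
MEF2C start, chr5:88827193-88827442 (minus strand): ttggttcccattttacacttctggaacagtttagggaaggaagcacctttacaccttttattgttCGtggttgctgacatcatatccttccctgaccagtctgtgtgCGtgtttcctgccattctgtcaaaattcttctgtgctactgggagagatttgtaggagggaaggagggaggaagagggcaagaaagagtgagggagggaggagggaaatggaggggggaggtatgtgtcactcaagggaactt
SYK start, chr9:90827170-90827419 (plus strand): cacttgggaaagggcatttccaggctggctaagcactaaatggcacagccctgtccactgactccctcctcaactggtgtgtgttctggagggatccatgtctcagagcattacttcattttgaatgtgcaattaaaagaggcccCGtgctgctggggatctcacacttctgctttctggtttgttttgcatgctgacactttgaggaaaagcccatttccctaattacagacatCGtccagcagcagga

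RUNX3 encodes a RUNX-family transcription factor, and the sequence before its internal start held 33 CG dinucleotides at 78.4% G and C. The peak over it reached 74.3-fold and was 6449 bp wide. MEF2C, a MADS-box transcription factor, had 2 such starts of opposite composition. The one with 28 CG dinucleotides lay under a peak of 60.9-fold, and the one with 2 lay under a peak of 73.3-fold. MECOM encodes EVI1, a zinc-finger transcription factor of blood stem cells, and its start with 8 CG dinucleotides lay under a peak of 27.5-fold. SYK, a tyrosine kinase of immune receptor signalling, had 2 CG dinucleotides before a start under a peak of 40.002-fold. Fold values overlapped between the CG-rich and CG-poor starts shown, which were picked for their CpG content and do not stand for all starts. Over all starts under deep intragenic peaks, described below, CG-rich ones were more common under the strongest peaks.

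The next 3 starts were chosen because they hold matches to the recognition words of blood transcription factors, which are in capitals. The words searched, on both strands, were AGATAA and TGATAA for GATA factors, GAGGAAGT for PU.1, TGTGGTT for RUNX factors and TGANTCA for AP-1.
DOCK8 start, chr9:272796-273045 (plus strand): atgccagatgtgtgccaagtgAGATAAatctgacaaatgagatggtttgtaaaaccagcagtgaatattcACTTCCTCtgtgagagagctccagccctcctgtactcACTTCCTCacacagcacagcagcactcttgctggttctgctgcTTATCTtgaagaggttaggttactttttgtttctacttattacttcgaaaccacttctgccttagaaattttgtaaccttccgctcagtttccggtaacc
HDAC4 start, chr2:239267515-239267764 (minus strand): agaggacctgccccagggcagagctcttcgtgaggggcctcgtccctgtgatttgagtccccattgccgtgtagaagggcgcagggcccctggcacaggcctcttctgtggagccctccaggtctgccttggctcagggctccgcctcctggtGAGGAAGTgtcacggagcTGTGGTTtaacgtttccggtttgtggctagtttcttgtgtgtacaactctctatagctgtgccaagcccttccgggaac
TMCC2 start, chr1:205255952-205256201 (plus strand): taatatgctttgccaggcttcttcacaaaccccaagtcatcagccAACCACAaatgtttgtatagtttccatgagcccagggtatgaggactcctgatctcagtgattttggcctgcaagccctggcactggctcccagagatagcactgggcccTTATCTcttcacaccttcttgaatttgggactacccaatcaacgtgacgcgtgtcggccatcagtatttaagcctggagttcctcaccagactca

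DOCK8, a guanine nucleotide exchange factor of immune cell migration, had 4 matches before its start, 2 of AGATAA and 2 of GAGGAAGT. Its peak reached 57.9-fold and its start lay 114 bases from the summit. HDAC4, a histone deacetylase, had 1 match of GAGGAAGT and 1 of TGTGGTT before a start 26 bases from the summit of a 92.5-fold peak. TMCC2, listed among erythroid genes, had 1 match of AGATAA and 1 of TGTGGTT under a peak of 56.9-fold. Of 30 deep intragenic peaks that cover a coding start in a gene of the lists used below (1 chromosome was not used here), 11 (36.7%) had a match of these words in the 250 bases before the start nearest to the summit. At least 1 of these words stood in the same stretch of 28.4% of starts under all deep intragenic peaks, 38.2% of deep starts under no peak and 24.1% of all windows, so such matches are common. The matches describe letters in these windows and do not show that a factor binds.

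Most deep intragenic peaks lay near the lower end of the fold range. The lowest reached 24.01-fold, the median 35.3-fold and the highest 99.7-fold, with quartiles at 28.4-fold and 49.1-fold. Between 24-fold and 30-fold there were 1990 peaks, between 30-fold and 50-fold 2738, between 50-fold and 75-fold 1102, and from 75-fold upwards 379. Fold and p of the list are matched by a background of 93.5 overlapping reads or fragments, which gives pileups of 2268, 3333 and 9426 at the lowest, median and highest of these summits. Exact Poisson 95% intervals were 23.03 to 25.01-fold, 34.1 to 36.5-fold and 97.7 to 102-fold, and they cover counting error only. The depth of single libraries is unknown, and in pooled bulk libraries a site open in few cells and a site weakly open in many cannot be told apart.

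**Figure D1:**
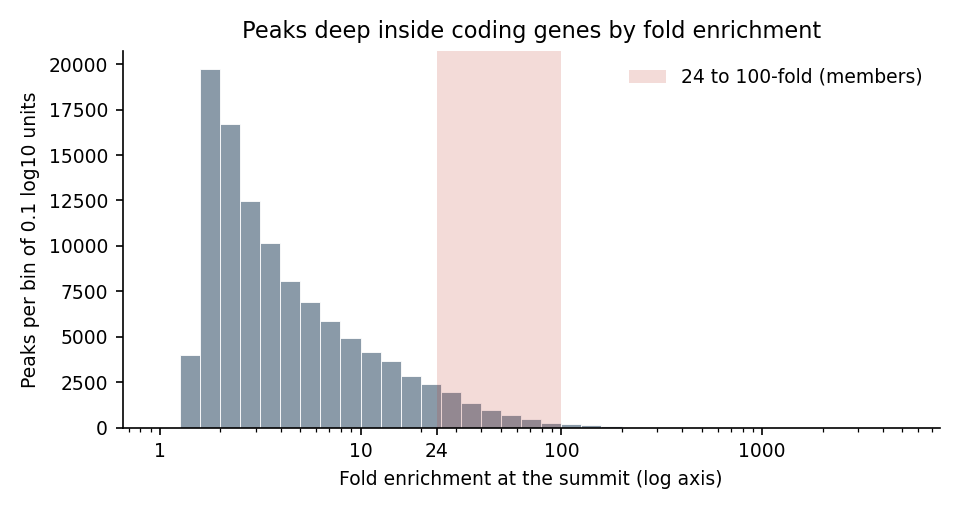
Number of peaks deep inside coding genes (vertical axis, peaks per bin of 0.1 log10 units) by fold enrichment at the summit (horizontal log axis). The shaded range from 24 to 100-fold holds the 6209 deep intragenic peaks described here, to the left of it lie 101464 weaker peaks and to the right 481 stronger ones.

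The 5 peaks of highest fold lay just under the upper limit of 100-fold used to choose them, in genes of differing function. A peak of 99.7-fold and 8569 bp lay where SLA, an adaptor of antigen receptor signalling, sits within TG, the thyroglobulin gene. Next came peaks in TNRC6B, a partner of Argonaute in microRNA silencing (99.5-fold), UBASH3B, a phosphatase of tyrosine kinase signalling (99.4-fold), HK1, a hexokinase of glycolysis (99.3-fold), and LIMS1, an adaptor of integrin adhesion (99.05-fold). The HK1 peak covered an annotated coding start, and the other 4 covered none. Just inside the lower end of the range were peaks of 24.01-fold in TSPAN18, a tetraspanin, and ABR, a regulator of small GTPases, and of 24.02-fold in GRM4, a glutamate receptor, RNF144A, a ubiquitin ligase, and SLX4IP.

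The limits of the range cut through a continuum. Just under it were peaks in EPS8, FAM53B, LCP2 and DENND11, all at 23.99-fold, and in LAMB3 at 23.98-fold. Just over it were peaks of 100.04-fold in ADAP1, 100.1-fold in ZSCAN18, 100.2-fold in SLC45A4 and 100.3-fold in SEPTIN9 and GSE1.

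Deep intragenic peaks were broad. Their median width was 1395 bp (interquartile range 967 to 2143 bp), against 446 bp for weaker peaks at such positions and 2552 bp for those over 100-fold. Among peaks of the same fold range, the median was 2092.5 bp within 1 kb of a coding gene end, 1439 bp at 1 to 10 kb from one, and 1268.5 bp outside coding genes and over 10 kb from their ends. Width and fold are linked by the caller, which extends a peak over all bases past its threshold: within the range, the median width was 1134 bp from 24-fold to 30-fold and 2198 bp from 75-fold. Spearman's correlation between fold and width was 0.353 across the 6209 peaks, which share the same libraries.

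**Figure D2:**
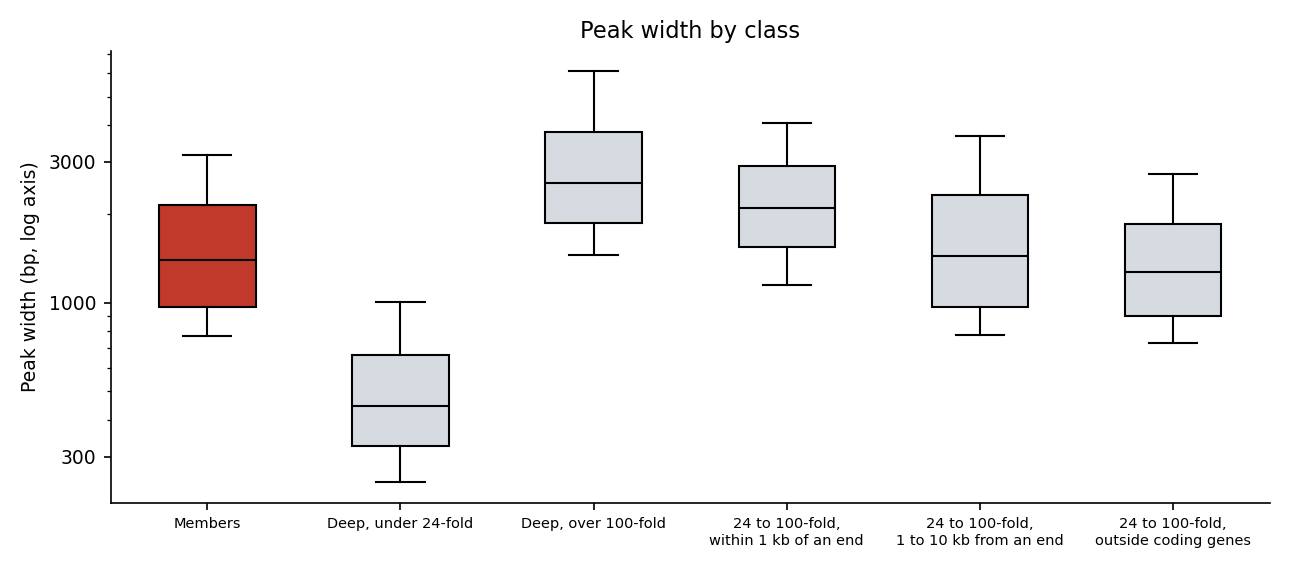
Peak width (log axis, bp) for the deep intragenic peaks and 5 other classes of peaks. Boxes span the quartiles with the median as a line, and whiskers run from the tenth to the ninetieth percentile. The deep intragenic peaks (median 1395 bp) lie above weaker deep peaks (446 bp) and below peaks of the same fold within 1 kb of a gene end (2092.5 bp).

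The 5 widest peaks each exceeded 15 kb. ZMIZ1, a transcriptional coactivator, held a peak of 20942 bp at 64.5-fold. CXXC5, a CpG-binding zinc-finger protein, held one of 17460 bp at 93.7-fold that covered annotated coding and non-coding starts. NOTCH1, a receptor that specifies blood stem cells and T cells, held one of 16872 bp at 64.6-fold. RIN3, a Rab5 exchange factor, and WDR1, an actin-disassembly factor, held peaks of 15307 and 15131 bp. In all, 177 peaks (2.85%) were wider than 5 kb.

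The peaks were spread over many genes and gathered in a few. Of 19122 coding genes, 10400 hold sequence over 10 kb away from all coding gene ends, 918 Mb in all, called deep coding sequence here. Of those 10400 genes, 3148 (30.3%) held at least 1 deep intragenic peak. A single peak was held by 1807 genes, 2 to 4 by 1077 and 5 or more by 264. These 264 genes held 1710 peaks, 27.5% of all. The density over all deep coding sequence was 6.76 peaks per Mb, and the peaks covered 1.21% of it.

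GSE1, a component of transcriptional corepressor complexes, held the most, 20 peaks from 25.6-fold to 74.0-fold. HIVEP3, a zinc-finger transcription factor, and CACNA1C, the pore-forming subunit of an L-type calcium channel, held 14 each. SEPTIN9, a septin of the cytoskeleton, ETV6, an ETS-family repressor, and FOXN3, a forkhead repressor, held 12 each. ZMIZ1, CHST11, a sulfotransferase of chondroitin, and IQSEC1, an exchange factor for ARF6, held 11 each. The number per Mb of deep sequence in these genes ran from 20.4 in CACNA1C to 60.3 in SEPTIN9. The highest summit within 1 kb of the ends of CACNA1C was 2.49-fold, whereas HIVEP3 reached 114-fold there.

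The densest genes were not those with the most peaks. Among genes with at least 50 kb of deep sequence and 3 peaks, ANKRD33B had the highest density, with 8 peaks at 108 per Mb. ITPKB, an inositol trisphosphate kinase, followed with 9 peaks at 103 per Mb, from 28.1-fold to 98.4-fold, although it had no summit within 1 kb of its ends. IRAK2, a kinase of Toll-like receptor signalling, had 102 per Mb and MYO18A, an unconventional myosin, 100.8 per Mb. PIK3R5, the regulatory subunit of PI3-kinase gamma, had 6 peaks at 89.8 per Mb. NINJ2, PNPLA7, RFX2, BAIAP2 and PHC2, a Polycomb subunit, had 88.4, 85.2, 82.2, 80.5 and 80.03 per Mb. RFX2, a transcription factor, also had 228-fold signal at its ends.

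Peaks stood in clusters as well as alone. Another deep intragenic peak lay within 12500 bp for 32.2% of them, and 1997 of them fell in 849 clusters linked at that distance, 219 of which held 3 or more. The largest cluster held 7 peaks in GSE1, from 27.4-fold to 74.0-fold. Clusters of 6 lay in PHC2, in DGKZ, a diacylglycerol kinase, in SMAD3, a mediator of TGF-beta signalling, in RAB31, an endosomal GTPase, and in DNMT3A, a DNA methyltransferase altered in leukaemia. The DNMT3A cluster ran from 25.2-fold to 56.1-fold. For peaks of the same fold outside coding genes, the share with another of their own class within 12500 bp was 31.9%, and for those 1 to 10 kb from a gene end it was 31.6%. Counting all peaks of the list, the median deep intragenic peak had 5 others within 10 kb. The median was also 5 for deep peaks over 100-fold and for peaks of the same fold 1 to 10 kb from a gene end, 4 for the other classes of the same fold, and 3 for weaker deep peaks.

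Genes of blood cells were named in lists, and their peaks were counted per Mb of deep sequence. Since long genes held fewer peaks per Mb (13.4 in genes with up to 20 kb of deep sequence and 4.09 in those over 200 kb), each count is also given as a ratio to the number that all coding genes of the same length classes would give. The class over 200 kb has no upper limit, so the longest genes are matched for length only in part. The lists were chosen with earlier results of these data known, so the counts describe the peaks and test nothing.

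Progenitor transcription factor genes held 75 peaks at 18.8 per Mb, 3.01 times the length-matched number. Of 26 such genes with deep sequence, 23 held a peak (88.5%), against 30.3% of all 10400 genes. Over all genes this share rose with deep length, from 10.6% up to 20 kb to 60.5% over 200 kb. It was 50.3% from 100 to 200 kb, and the median deep length in this list was 113 kb. The shares of genes given for the lists are not matched for length. ETV6 held 12, at 25.5, 25.3, 54.6, 25.1, 52.9, 47.6, 78.2, 37.3, 39.1, 55.2, 35.6 and 31.4-fold in the order of the chromosome. The peak of 78.2-fold was 7175 bp wide and lay 149 kb from the start of the gene. FLI1, an ETS-family activator of blood and vessel genes, held 7, at 29.6, 29.4, 24.4, 53.3, 27.1, 45.6 and 51.7-fold. Its ends reached only 1.62-fold within 1 kb. IKZF2 and HLF, the longest by deep sequence of the 3 without one, held none, although their ends reached 70.0-fold and 27.1-fold. Deep peaks of any strength were also dense in these genes, at 278 per Mb against 118 per Mb over all deep coding sequence.

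RUNX1, the core-binding factor that blood stem cells need in order to form, held 5 deep intragenic peaks. They reached 25.03, 55.0, 58.5, 32.7 and 25.8-fold at 54.4, 141, 184, 213 and 222 kb from the 5′ end of the gene. The peak of 32.7-fold covered a non-coding start. Stronger peaks outside the range stood among them, one of 113-fold 22.4 kb from the 5′ end and one of 101.4-fold and 11476 bp over an internal coding start 161 kb from it. IKZF1, which encodes the lymphoid and erythroid regulator Ikaros, held peaks of 24.5, 46.6 and 24.5-fold at 30.03, 35.3 and 66.1 kb, around a stronger peak of 115-fold at 53.2 kb. MECOM held 4 of 27.5 to 42.8-fold, all more than 300 kb from its 5′ end, and ERG, an ETS-family factor of stem cells, held 2 of 28.1 and 32.6-fold. BCL11A, a repressor of fetal globin, held 1, of 39.2-fold, at 37.9 kb from its 5′ end, and its next strongest deep peaks reached 16.8-fold and 16.2-fold. In these 6 genes the deep intragenic peaks were 27 of 395 peaks.

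**Figure D3:**
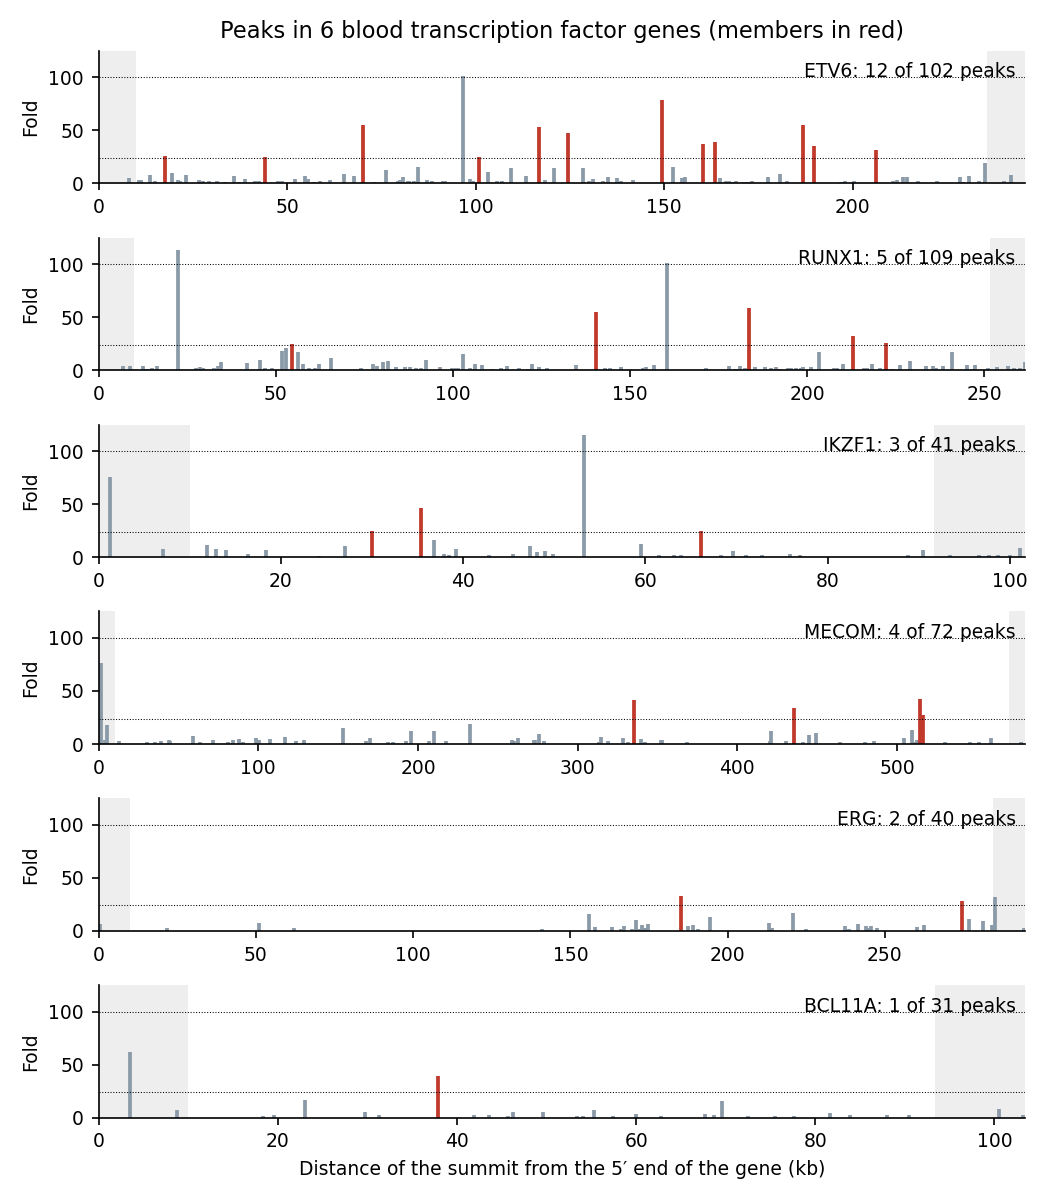
Fold enrichment of every peak (vertical axis) by the distance of its summit from the 5′ end of the gene (horizontal axis, kb) in ETV6, RUNX1, IKZF1, MECOM, ERG and BCL11A. Red lines are deep intragenic peaks, blue-grey lines other peaks, grey bands the 10 kb at each end of the gene, and dotted lines 24-fold and 100-fold. ETV6 holds 12 red lines along its length and BCL11A holds 1.

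Haematopoietic signalling genes held 97 peaks at 18.8 per Mb, 3.26 times the length-matched number, in 22 of 28 genes. ARHGAP26, a GTPase-activating protein, held 9, from 26.4-fold to 64.6-fold. PLCG2, a phospholipase of immune receptor signalling, held 8, at 65.5, 72.6, 30.4, 25.1, 49.7, 93.0, 24.4 and 46.6-fold along the gene, and the strongest covered a non-coding start. PRKCB, protein kinase C beta, held 7, from 24.1-fold to 45.3-fold. JAK2, the kinase of cytokine receptors, and CBL, a ubiquitin ligase that ends receptor signalling, held none, while their ends reached 162-fold and 137-fold.

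Erythroid genes held 26 peaks at 15.03 per Mb, 2.48 times the length-matched number, in 12 of 21 genes. ANK1, the ankyrin of the red cell membrane skeleton, held 9 of them, from 24.7-fold to 84.0-fold. SOX6, a repressor of embryonic globin, held 4, and 3 of these, of 56.8, 44.9 and 30.9-fold, lay between 106 and 132 kb from its 5′ end. NPRL3, a subunit of the GATOR1 complex whose introns are known to hold distant enhancers of the alpha-globin genes, held 3, of 86.4, 25.3 and 64.5-fold. They lay at chr16:96137-97704, chr16:106777-107516 and chr16:112585-114765. FECH, the last enzyme of haem synthesis, held none. Of all deep peaks in erythroid genes, 11.5% were in the fold range, against 5.74% over all genes. These shares are not matched for length, and the median deep length in this list was 22.3 kb. Over all genes the share was 8.40% with up to 20 kb of deep sequence and 7.36% from 20 to 50 kb.

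Megakaryocyte and platelet genes held 28 peaks at 14.7 per Mb, 2.46 times the length-matched number, in 9 of 14 genes. MYLK, myosin light chain kinase, held 7, at 62.0, 44.4, 54.6, 35.7, 33.8, 46.9 and 53.4-fold. RAB27B, a GTPase of platelet granule release, held 4, of 95.7, 40.7, 46.5 and 51.5-fold, the second of them over an internal coding start. PDE3A, a cyclic AMP phosphodiesterase of platelets, held 4, from 24.7-fold to 37.9-fold, with no summit within 1 kb of its ends. F13A1 and ITGA2 held none.

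Myeloid genes held 23 peaks at 13.5 per Mb, 1.94 times the length-matched number, in 10 of 21 genes, with a median of 52.1-fold. LYN, a SRC-family kinase, held 5, at 31.7, 78.6, 78.7, 39.1 and 63.7-fold. SYK held 3, of 61.2, 40.002 and 87.9-fold. MRC1 and CD36, receptors of mature macrophages, held none. The progenitor receptor and surface protein genes held 24 peaks at 14.3 per Mb, 1.90 times the length-matched number, in 11 of 20 genes. IGF1R, a growth factor receptor, had 10 of these, from 24.3-fold to 70.7-fold. ENG, a co-receptor for TGF-beta, had 3, of 68.8, 40.9 and 33.8-fold, in 19.6 kb of deep sequence. TEK, the angiopoietin receptor, and LEPR, the leptin receptor, held none.

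Genes altered in leukaemia held 37 peaks at 13.9 per Mb, 2.11 times the length-matched number, in 11 of 23 genes. ETV6 and RUNX1 are counted here too, with 17 of the 37. DNMT3A held 7, of 34.1, 56.1, 38.1, 54.7, 26.1, 25.2 and 50.7-fold, while MLLT3 and NF1 held none. General chromatin regulators, which most cell types use, held 64 peaks at 11.1 per Mb, in 20 of 30 genes, 1.90 times the length-matched number. KDM2B, a histone demethylase, held 8, and TET3, which oxidises methylated cytosine, held 5, with 93.6-fold at the strongest. KMT2C and SMARCA2 held none.

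Endothelial genes held 15 peaks at 12.53 per Mb, 1.35 times the length-matched number, in 7 of 19 genes. FLT1, a VEGF receptor, held 6 of them, from 28.6-fold to 78.7-fold, ENG held 3, and PECAM1, an adhesion molecule of endothelium and platelets, held 2. The pluripotency, hepatocyte and mesenchymal lists lay below the length-matched number, which was 4.66, 8.54 and 18.1 peaks in turn. With 4 and 16 peaks, the pluripotency and mesenchymal lists were close to it. Pluripotency genes held 4 peaks at 8.27 per Mb (0.858 times), in 2 of 9 genes. LIN28B, a repressor of let-7 maturation, had 3 of these, of 49.2, 26.4 and 26.8-fold, and DNMT3B, a DNA methyltransferase of early embryos, had 1 of 25.1-fold. Hepatocyte genes held 5 peaks at 5.66 per Mb (0.586 times), in 3 of 17 genes (17.6%, against 30.3% of all genes), with 93.2-fold over a non-coding start in HNF4A, a nuclear receptor, and 30.6-fold and 25.2-fold in ABCB11, the bile salt export pump. Mesenchymal and matrix genes held 16 peaks at 5.26 per Mb (0.885 times), although 10 of 20 genes (50%) held one. COL4A2 held 4 of the 16 and COL4A1 held 2, both chains of basement membrane collagen.

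Lymphocyte, muscle and neuronal genes lay below the length-matched number too, though the B lymphocyte count was close to it (15 against 16.9). Their shares of genes with a peak, not matched for length, were above the 30.3% of all genes. They were 46.7% for B lymphocyte, 38.9% for T and NK lymphocyte, 47.4% for muscle and 56% for neuronal synapse genes. B lymphocyte genes held 15 peaks at 4.27 per Mb (0.887 times), of which ARHGAP24, a GTPase-activating protein, held 6 and FOXP1, a forkhead repressor, 3 of 43.1, 79.7 and 78.4-fold. T and NK lymphocyte genes held 12 at 4.11 per Mb (0.730 times), with 3 in CD247, the zeta chain of the T cell receptor complex. RORA and THEMIS held none. Muscle genes held 14 at 3.11 per Mb (0.579 times), with 4 in RYR1, the calcium release channel of muscle, at 36.5, 27.3, 74.0 and 25.3-fold. Neuronal synapse genes, the longest of all, held 41 peaks at 1.25 per Mb, 0.305 times the length-matched number. CACNA1C alone had 14 of these 41, OPCML, a cell adhesion molecule, 6, and DAB1, an adaptor of reelin signalling, 3. DLG2, a scaffold of the synapse, held none in 2153 kb of deep sequence. The median deep length in the synapse list was 1180 kb, within the open class over 200 kb. Its ratio is therefore matched for length only in part, and the part of length in it was not tested.

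**Figure D4:**
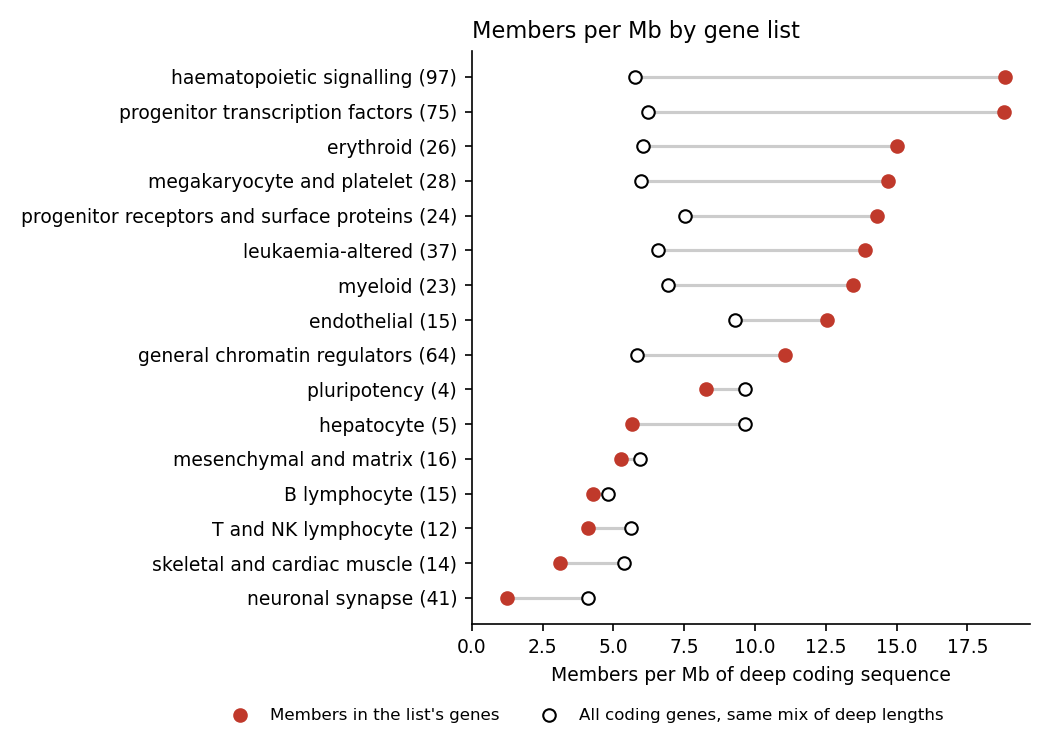
Deep intragenic peaks per Mb of deep coding sequence (horizontal axis) in 16 gene lists, with the number of peaks in brackets. Red points are the genes of a list. Open points give the density of all coding genes with the same mix of deep length classes, the last of which is open above 200 kb. Red points lie right of the open ones in the upper 9 lists and left of them in the lower 7, lymphocyte lists included. Some of the 7, such as the mesenchymal and B lymphocyte lists, lie close to their open points. The lowest density is that of neuronal synapse genes (1.25 per Mb).

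The strength of a gene's own ends, which the choice of peaks did not use, was set beside the number of peaks inside it. For each gene this was the highest fold of a summit within 1 kb of an end, or 0 without one. Summits just past 1 kb are missed. MECOM scored 0, for example, with a 76.7-fold peak 1.19 kb from its 5′ end. Among genes with over 200 kb of deep sequence, the median was 42.5-fold with 5 or more peaks, 34.3-fold with 2 to 4, 22.8-fold with 1 and 17.8-fold with none. That class has no upper limit of length, and the part of length in this order was not tested. Shorter genes did not show that order. In genes with up to 20 kb the median was 59.3-fold with 2 to 4 peaks, 59.2-fold with 1 and 71.7-fold with none. From 20 to 50 kb it was 26.9-fold with 5 or more (5 genes), 67.7-fold with 2 to 4, 50.3-fold with 1 and 73.1-fold with none. From 50 to 100 kb it was 81.1-fold with 5 or more (28 genes), 55.2-fold with 2 to 4, 49.5-fold with 1 and 70.0-fold with none. From 100 to 200 kb it was 42.9-fold with 5 or more peaks, 45.9-fold with 2 to 4, 50.3-fold with 1 and 50.03-fold with none. PTPRC, the common leukocyte antigen CD45, reached 30.9-fold at its ends and held 1 deep intragenic peak. Other markers of these cells were open at their ends to differing degrees. ITGA2B, an integrin of megakaryocytes, reached 113-fold, and CD34, an antigen of progenitors, 14.8-fold. KDR, a receptor of endothelium and early blood precursors, reached 28.4-fold, and SPN only 3.93-fold. GATA2, a stem cell transcription factor, had no summit within 1 kb of its ends, which does not show that they are closed.

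Peaks thinned out with distance from gene ends. They lay at 10.5 per Mb between 10 and 20 kb from the nearest coding gene end, 8.46 between 20 and 50 kb, 6.49 between 50 and 100 kb, 4.17 between 100 and 200 kb and 1.59 beyond 200 kb. Sites far from every end exist only in long genes, which held fewer peaks per Mb. The part of gene length in the values by distance was not tested. The peak farthest from any end, 886 kb away, lay in RBFOX1, a splicing factor of neurons, and reached 26.2-fold. Weaker peaks thinned out too, so that the share of deep peaks in the fold range was 6.95% at 10 to 20 kb and 3.00% beyond 200 kb. Along the gene there was little preference: of 5033 peaks in genes with a known strand, 26.1, 24.8, 23.5 and 25.6% lay in 4 successive equal stretches of the gene from its 5′ side, leaving out 10 kb at each end, against 27.1, 25.3, 23.7 and 23.8% of weaker deep peaks. By chromosome, the density was highest on chromosome 19, at 17.5 per Mb, and lowest on chromosome 4, at 4.34 per Mb.

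A minority of deep intragenic peaks covered an annotated transcript start. Such a start lay under 591 of them (9.52%), a coding one under 469 and one of a long non-coding RNA under 180, with both under 58. The share was 0.992% for weaker deep peaks and 46.6% for those over 100-fold. Among peaks of the same fold range it was 70.0% within 1 kb of a coding gene end, 12.9% at 1 to 10 kb and 6.26% outside coding genes. Within the range it was 6.18% from 24-fold to 30-fold and 26.9% from 75-fold upwards. Peaks over a start had a median of 44.5-fold and 2141 bp, and the 5618 peaks (90.5%) without one had a median of 34.7-fold and 1342 bp. Wide peaks cover more bases, and the part of width in these shares was not tested, but for 417 of the 591 (70.6%) a start lay within 250 bases of the summit itself.

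The composition of these starts fell between that of strong and weak peaks. CpG content is the number of CG dinucleotides over the number that the C and G content would give by chance, and each window ran from 250 bases before a start to 50 after it. The median was 0.543 over 689 starts under deep intragenic peaks, against 0.835 for 282 starts under deep peaks over 100-fold, 0.327 for 1073 under weaker ones and 0.210 for 2205 deep starts under no peak. Over all 33557 windows it was 0.578. The starts under deep intragenic peaks were mixed: 46.6% had a CpG content over 0.6, as at RUNX3, and 26.1% were under 0.3, as at SYK. The share over 0.6 was 39.9% from 24-fold to 30-fold and 63.8% from 75-fold upwards.

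**Figure D5:**
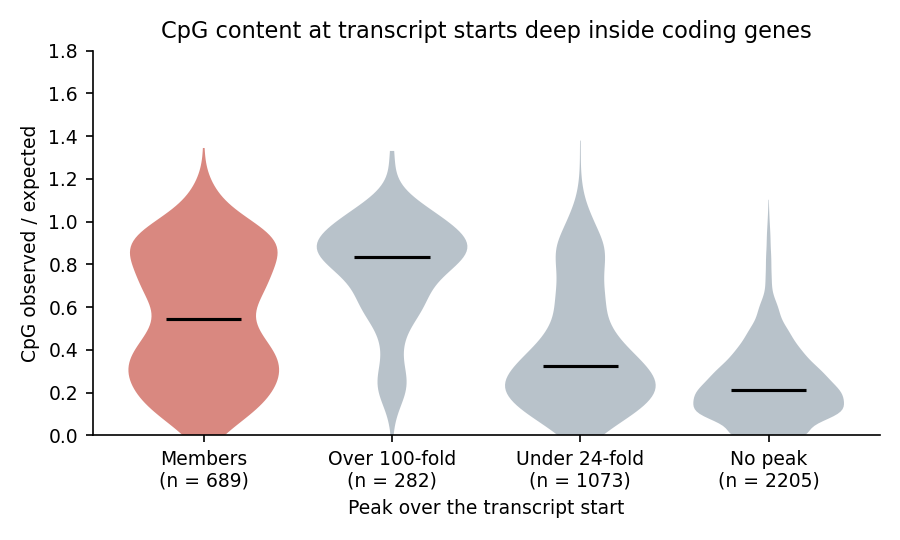
CpG content (observed over expected, vertical axis) of transcript starts deep inside coding genes, by the peak that covers them. Shapes show the distribution and black lines the median. Starts under deep intragenic peaks (n = 689) have a broad distribution around a median of 0.543, with peaks over 100-fold above (0.835) and starts under weaker peaks (0.327) or no peak (0.210) below.

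Recognition words were counted in the same windows on both strands. The PU.1 word GAGGAAGT was found at 5.37% of starts under deep intragenic peaks, against 1.68% of deep starts under no peak and 2.58% of all windows. Under weaker deep peaks its share was 4.38%, close to that of the deep intragenic peaks. A GATA word, AGATAA or TGATAA, was found at 14.4%, against 21.3% under weaker deep peaks, 30.5% under no peak and 16.3% of all windows. These words differ in G and C content, as do the windows, whose median was 59.7% under deep intragenic peaks and 44.0% under no peak. Among CG-poor starts (CpG content under 0.3), GAGGAAGT was found at 8.89% of 180 starts under deep intragenic peaks and 1.98% of 1518 under no peak. Under weaker deep peaks it was at 5.32% of 489 CG-poor starts. The AP-1 word TGANTCA was found at 23.9% of CG-poor starts under deep intragenic peaks, 17.8% under weaker deep peaks and 11.99% under no peak. Over all starts its shares were 11.2% under deep intragenic peaks, 12.3% under weaker ones and 11.7% under no peak. The RUNX word TGTGGTT was at 8.33% of CG-poor starts under deep intragenic peaks, 10.2% under weaker deep peaks and 5.60% under no peak. Over all starts it was at 4.93% under deep intragenic peaks, 7.74% under weaker ones and 5.22% under no peak. Among CG-poor starts, a GATA word was at 20% under deep intragenic peaks, 29.9% under weaker deep peaks and 32.5% under no peak. Median G and C content still differed there, 50.3% under deep intragenic peaks and 42.7% under no peak. The ETS word CCGGAAGT was at 2.32% of the 689 starts, 0.466% under weaker deep peaks, 0.544% under no peak and 4.15% of all windows. The E-box CACGTG, which MYC and USF can bind, was at 5.37%, 4.75%, 4.22% and 7.15% in the same order. TTGCGCAA and TTGCNTCA of CEBP factors were at 0.145% and 3.05% of the 689, against 0.155% and 3.22% of all windows. Under weaker deep peaks they were at 0.0932% and 4.01%, and under no peak at 0.0907% and 4.54%. The CTCF motif was at 3.34% of the 689, 1.86% under weaker deep peaks, 1.22% under no peak and 2.44% of all windows. The NFE2 motif, which contains the AP-1 word, was at 0.145%, 0.559%, 0.227% and 0.149% in the same order.

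Some deep intragenic peaks covered microRNA genes. Of 458 microRNA hairpins in deep coding sequence, 19 lay under 18 of these peaks. The peaks covered 1.21% of deep coding sequence, and the count of hairpins was not tested against that share. MIR199B and MIR3154 lay under a peak of 66.5-fold in DNM1, a dynamin of endocytosis, and MIR148B under one of 27.0-fold in COPZ1, a coat protein of the Golgi. MIR5093 lay under a peak of 56.0-fold in GSE1. The mature sequences of the 2 best-known arms are shown with the seed, bases 2 to 8, in capitals. Their seeds differ.
hsa-miR-199b-3p, chr9:128244745-128244766 (minus strand): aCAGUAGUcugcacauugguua
hsa-miR-148b-3p, chr12:54337278-54337299 (plus strand): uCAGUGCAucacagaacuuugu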

How the data were processed

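Per the labels' protocols, each ATAC-seq library came from 50000 cells, 45 minutes of transposition and paired reads of 75 nucleotides. Per the submitters' processing notes, the tools were Bowtie2 2.2.8, Picard 2.2.4 and Trim Galore 0.6.5, with GRCh38.p13 as the build. MACS 2.1.0 and GENCODE 36 stand in the peak names of the deposited list. Order, filters, any shift for the transposase and the libraries pooled are not given in the sources used here. The deposited list gives a score, a fold (a linear ratio), a −log10 p-value and a q-value for each peak. Only the authors' fold and −log10 p were used, and the −log10 p only to recover the pooled background.

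Peaks, summits and coding genes were joined in Python 3.11.15 (pandas 2.3.3, numpy 2.4.6, scipy 1.17.1) and drawn with matplotlib 3.10.9, with genes, strands and sequences from RefSeq GRCh38.p14. The joins were tested on simulated data. No genome sequence was used here, so sequences around summits were not analysed; annotated starts (35116 windows of 300 bases, 1 kept per run of 300) took their place after the files were seen. The deep intragenic peaks and the 16 gene lists (400 entries, 10 unmatched) were chosen with earlier results of these data known. Strand was known for 79.0% of coding genes. Named genes are the 10 with the most peaks, the 10 densest, up to 3 with the most and 2 of the longest without a peak in each list, 6 transcription factor genes and the extreme peaks; some genes that meet the rule are not reported here. Starts shown as sequences, the microRNAs, the marker genes and the genes with the largest clusters were named after their values were seen.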

Additional observations from a re-analysis of the deposited data

How the results depend on the processing

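Of 54 alternative values over 11 settings, 33 stayed within 1.5 times (counts) or within the 95% interval from counting or, for medians, from ranks around the value reported, and 21 moved. With fold from 20, the median width was 1298 bp, the share of genes with a peak 35.6%, the share with another peak within 12500 bp 38.05%, and synapse genes held 1.89 per Mb. With fold from 30, these were 1552 bp, 23.4%, 26.3% and 0.548 per Mb, and progenitor transcription factor genes held 12.8 per Mb. With 5 kb from gene ends, 29.4% of genes held a peak. With 20 kb, 31.3% did, the median width was 1371 bp and the median fold at the ends of genes with a peak was 44.6, against 48.95 as defined above. Whole peaks in place of summits gave 29.1% of genes. Nearness of 5 kb and 25 kb gave 12.98% and 46.9% of peaks with a neighbour, and ends of 2.5 kb gave 57.1-fold. Alternatives chosen after seeing the data left out peaks over annotated starts (1342 bp, 28.1% of genes, 30.5% with a neighbour) or the gene with the most peaks (synapse genes without CACNA1C, 0.840 per Mb). Progenitor transcription factor genes stayed above synapse genes in density under each setting that bears on them. These densities are not matched for length, and both lists were chosen with earlier results of these data known. No paired analysis was possible because the list holds no value for any library, and for the same reason no replicate could be left out. The planned count of motifs around summits was not run, since no genome was used here. Libraries were pooled, so any peak may reflect some of the days or treatments and not others, and a constant background does not correct for copy number or mappability.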
